A study of Mus musculus with 4 samples.

Results

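Basement membrane, integrin and focal adhesion genes were followed in brain endothelial cells of wild-type mouse embryos and of embryos with the genotype labelled STINGECKO, written STING ECKO here and read as a knockout of STING in endothelial cells. The 37 members were taken by gene symbol from a list of vascular basement membrane chains, integrin subunits, adhesion plaque proteins and matrix-processing enzymes. Of them, 35 had a row in the deposited count tables, 34 were listed in both tables, and all 34 passed the filter on low counts, out of 13365 genes tested. Cells came from the brains of C57BL/6 embryos at embryonic day 18, and RNA was counted as reads per gene in 2 libraries a genotype: STING ECKO, numbered 1 and 2 in the labels, and wild type (WT), numbered 3 and 5. Triplicates are named in the design text of the series, while every SD and p here rests on 2 libraries a genotype. STING is an adaptor of cytosolic DNA sensing. The sources used here do not name the Cre line behind the knockout, how the endothelial cells were isolated, whether the WT embryos were littermates, or the number of embryos per library. Nothing says that libraries came from separate embryos, so the p-values cover the spread among the 4 libraries, and that spread may be technical.

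The vascular basement membrane is a sheet of matrix that endothelial cells and pericytes lay down together around brain capillaries. Laminin trimers of an alpha, a beta and a gamma chain and a network of type IV collagen form its layers, which nidogens and the heparan sulfate proteoglycans perlecan and agrin link together. Integrins, pairs of an alpha and a beta subunit, bind this matrix from the cell surface. On the inner side talin and kindlin hold the beta subunit, and ILK, parvin, vinculin, paxillin and focal adhesion kinase join it to actin and signalling.

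The promoters of 4 members, chosen with their values known, are shown because these genes carry the comparisons that follow: Hspg2 and Mmp14, which were among the 3 members with the smallest p between genotypes, Itgb1, the common partner of most alpha subunits, and Adamts1, which was high in both libraries of one deposited table and low in both of the other. The sequences are those of RefSeq on GRCm38.p6, read 5′ to 3′ in the direction of the gene. They end at the base before the RefSeq start site, or, for Hspg2, at the base before an exon annotated upstream of that start. Capitals mark the GC box, spelled GGGCGG, the CCAAT box and the TATA box, spelled TATAAA, each on either strand, so that a CCAAT box on the other strand reads ATTGG. Where matches touch, as in Mmp14, the capitals run together.
Hspg2 promoter, chr4:137468553-137468768, plus strand: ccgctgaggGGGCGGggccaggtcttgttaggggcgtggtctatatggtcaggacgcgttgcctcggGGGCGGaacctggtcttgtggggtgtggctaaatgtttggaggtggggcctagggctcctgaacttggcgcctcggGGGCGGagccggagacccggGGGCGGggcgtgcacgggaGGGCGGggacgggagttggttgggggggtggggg
Mmp14 promoter, chr14:54431348-54431597, plus strand: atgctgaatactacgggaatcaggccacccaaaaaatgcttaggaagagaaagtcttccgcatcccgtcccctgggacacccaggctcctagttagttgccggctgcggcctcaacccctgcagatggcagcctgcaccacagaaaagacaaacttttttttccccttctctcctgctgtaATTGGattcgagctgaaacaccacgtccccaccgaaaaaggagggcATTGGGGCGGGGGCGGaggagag
Itgb1 promoter, chr8:128685404-128685653, plus strand: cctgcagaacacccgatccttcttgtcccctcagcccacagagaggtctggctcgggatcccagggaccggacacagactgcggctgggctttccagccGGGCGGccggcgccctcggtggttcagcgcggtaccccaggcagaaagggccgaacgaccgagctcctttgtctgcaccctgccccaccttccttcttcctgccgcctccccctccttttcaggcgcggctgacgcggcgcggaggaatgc
Adamts1 promoter, chr16:85803114-85803363, minus strand: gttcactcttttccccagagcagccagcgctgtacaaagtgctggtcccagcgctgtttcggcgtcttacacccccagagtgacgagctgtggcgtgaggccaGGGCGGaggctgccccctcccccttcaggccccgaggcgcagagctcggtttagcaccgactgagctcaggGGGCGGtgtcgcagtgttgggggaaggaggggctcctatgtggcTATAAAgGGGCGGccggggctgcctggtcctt
The Hspg2 stretch of 216 bases held 5 GC boxes, that of Mmp14 2 GC boxes and 2 CCAAT boxes, that of Itgb1 1 GC box, and that of Adamts1 3 GC boxes and 1 TATA box, with 26 bases between it and the start. Lama2, the other of the 3 members with the smallest p, is not shown. Its window of 250 bases held none of these boxes and had a GC content of 47.2%. Of the 37 members, 28 had a promoter in the RefSeq table. Within 250 bases before the start, a GC box was found in 18 of these 28 (64.3%) and in 32.7% of all 32817 promoters, a CCAAT box in 9 (32.1%) and 33.8%, and a TATA box in 1 (3.57%), Adamts1, and 12.4%. Matches of the ETS core GGAA were found in 26 (92.9%) and in 93.4%. The members' windows had a median GC content of 64.4% and those of all promoters 52.4%. The sets are unlike: each member enters with 1 promoter, while all distinct promoters of the RefSeq table were counted, of genes expressed here or not. Of the 28 member windows, 13 held no base of an annotated exon, so the others were in part or wholly exon. The shares therefore do not show a trait of the members. A match is a run of letters and not a measured binding site.

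Some facts of the libraries bear on all values. Between 18610298 and 22169261 reads were listed per library. The targeted gene Tmem173 (Sting1) was at 3.65 and 8.32 CPM (read counts scaled to library size) in STING ECKO 1 and 2, against 4.48 and 6.27 in WT 3 and 5, so it did not separate the genotypes, and directions below rest on the labels. STING ECKO 2 stood apart with 1855 of 14100 genes at 0 reads, against 337 to 740 in the others. Ddx3y on the Y chromosome had 3623 reads in STING ECKO 1 and was at 0 or not listed in the others, so sex differs within the STING ECKO libraries. Endothelial markers were abundant throughout: all 12 were detected in each library, with summed levels of 23720 and 24454 CPM in STING ECKO against 23386 and 23313 in WT. Cldn5 made up 10487 and 12536 against 10853 and 10529 of these sums. Kdr, Flt1 and Esam were higher in both STING ECKO libraries than in both of WT, Pecam1 and Eng were lower, and 7 overlapped.

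No member passed the test between genotypes. With p-values adjusted by Benjamini and Hochberg over 13365 genes, the quasi-likelihood test of edgeR called 0 of 34 members and 0 of all genes (0% called), with an adjusted p of 1.00 for each member. At an unadjusted p under 0.05 there was 1 member, Hspg2, and 4.8% of all genes. DESeq2 called 0 members (smallest adjusted p 0.363, for Hspg2) and 87 genes (0.651%), and at an unadjusted p under 0.05 it found 2 members and 6.61% of genes. The log2 fold change, STING ECKO over WT, was above 0 in 17 members and below 0 in 17, where 48.2% of all genes and 55.2% of genes with a mean level of 50 CPM or more were above 0. At that level, 4.3% of genes had an unadjusted p under 0.05. The median log2 fold change was -0.02 over the members and -0.03 over all genes. Without STING ECKO 2, 27 of 34 members and 47.6% of all genes lay above 0. The median was then 0.12 over the members and -0.04 over all genes. With STING ECKO 1, WT 3 or WT 5 left out instead, 17, 22 and 18 members lay above 0, against 43.1%, 50.2% and 52.1% of all genes.

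The 95% interval of the fold change lay within 2-fold in either direction for 17 of the 34 members, and it included 0 on the log2 scale for 33. The genotypes did not overlap in 10 members (29.4%), meaning that both libraries of one genotype lay above both of the other, and in 34.4% of all genes. Of the 10, 9 were higher in STING ECKO (26.5% of members, against 15.4% of all genes and 19.6% of those with 50 CPM or more). These were Lama2, Lamc1, Hspg2, Itga5, Itgb1, Fermt2, Ptk2, Pxn and Mmp14, and Tln1 was the 1 that was lower, against 19% of all genes. Leaving out 1 library leaves fewer values to overlap, and the count was then 30 members with STING ECKO 1 left out (77.8% of all genes), 20 with STING ECKO 2 left out (64.9%), 15 with WT 3 left out (61.9%) and 23 with WT 5 left out (61.9%).

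**Figure D1:**
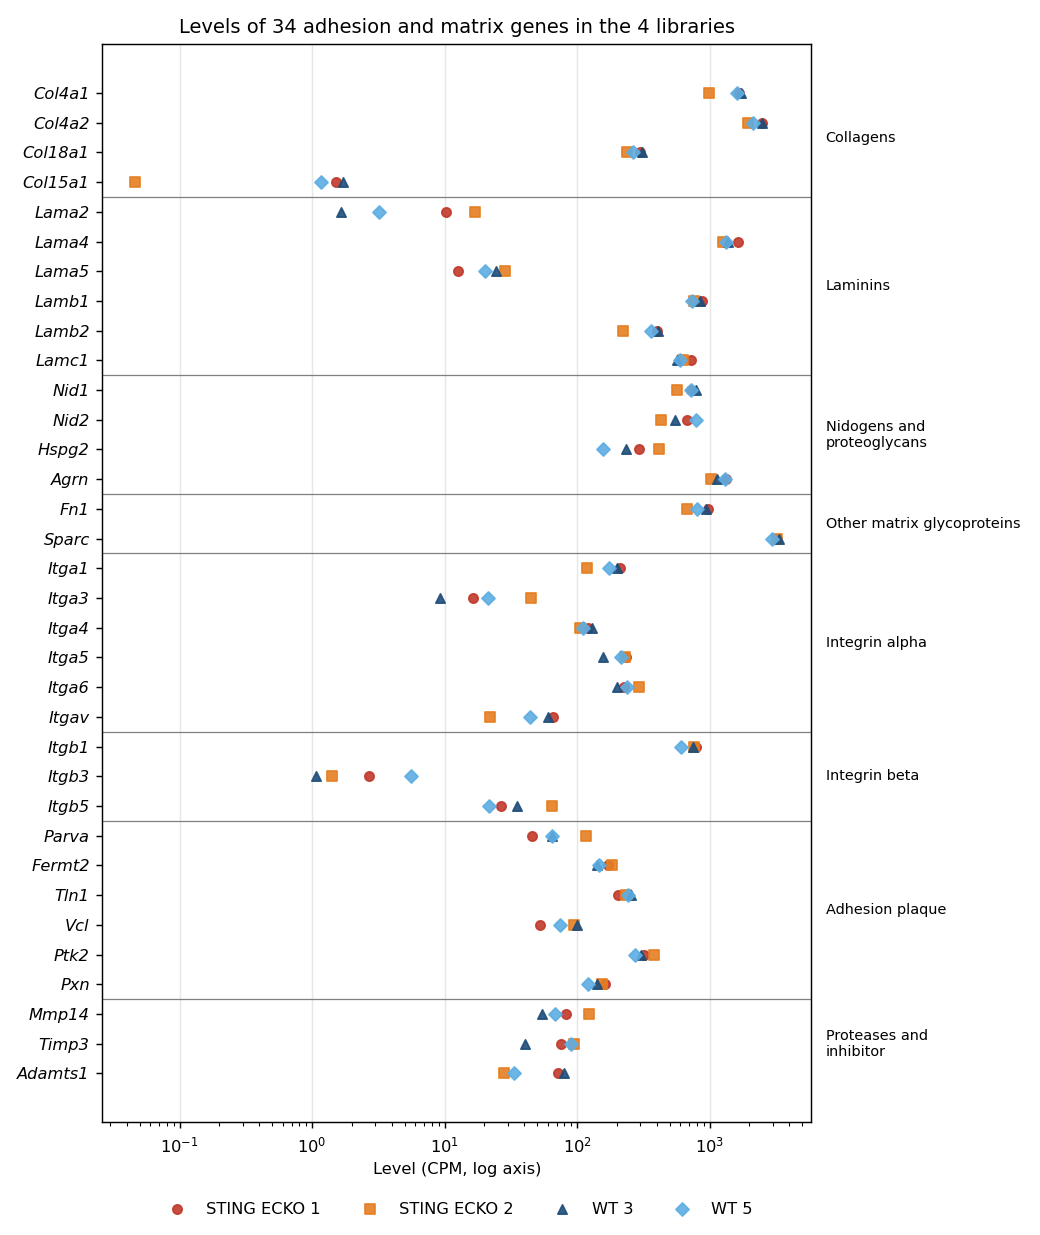
Level of each of the 34 members in each library, in CPM on a log axis, grouped by role; each symbol is 1 library. Sparc, Col4a1, Col4a2, Lama4 and Agrn lie at 981 CPM or more in every library, while Col15a1, Lama2 and Itgb3 are low and spread widely.

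**Figure D2:**
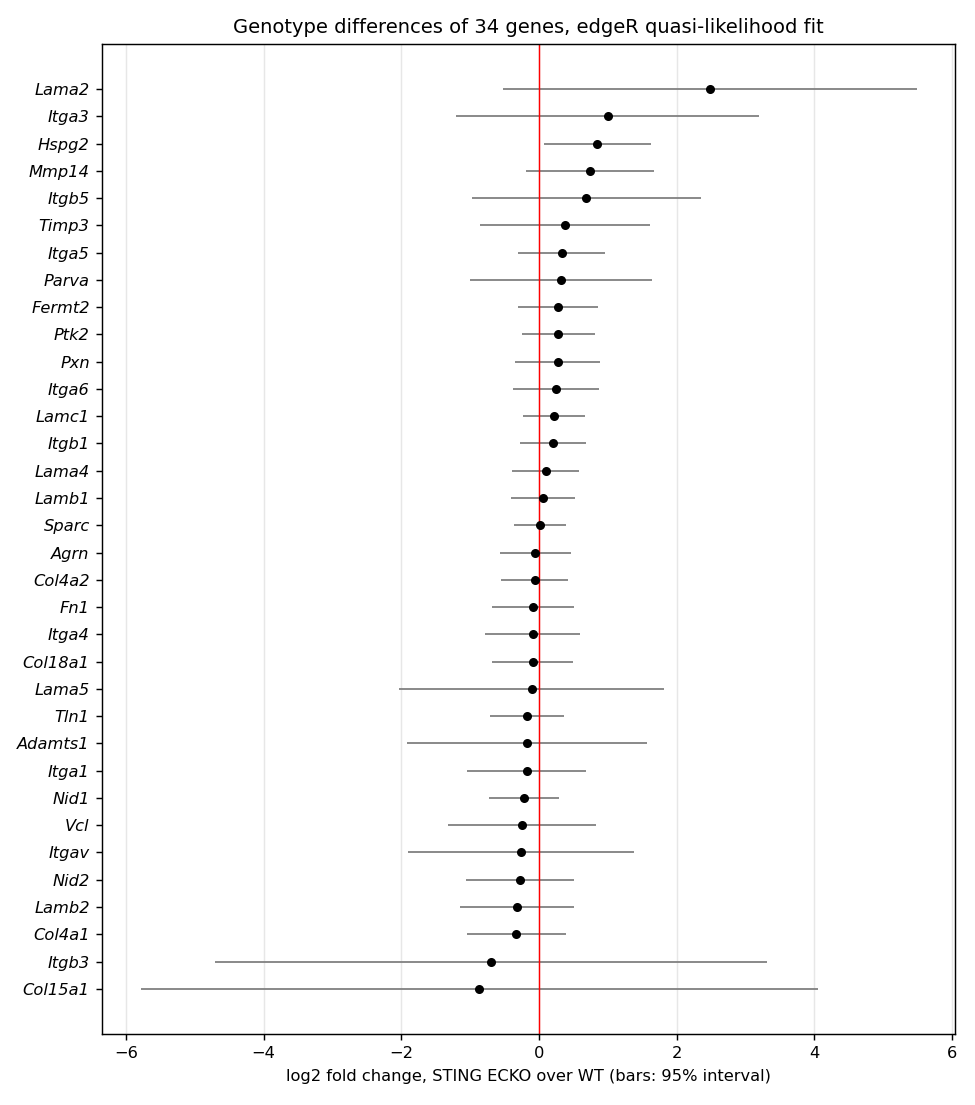
log2 fold change of STING ECKO over WT for each of the 34 members, with 95% intervals from the edgeR quasi-likelihood fit of 2 against 2 libraries. Only the interval of Hspg2 (0.07 to 1.63) leaves out 0, before adjustment for 13365 tests.

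None of the 4 collagens tested passed, all 4 had a log2 fold change below 0, and their median was -0.21. Type IV collagen, whose chains Col4a1 and Col4a2 build the network, was among the most abundant of the members. Col4a1 (chromosome 8, 11198423 to 11312826, minus strand, GRCm38 as in the tables) was at 1660 and 981 CPM in the STING ECKO libraries 1 and 2, against 1712 and 1601 in WT 3 and 5. STING ECKO 2 was the low library, and the genotypes overlapped (log2 fold change -0.33, SE 0.28, unadjusted p = 0.294 in the edgeR quasi-likelihood fit). Col4a2, which starts head to head with Col4a1 at 11312805 so that their ends overlap by 22 bases, was at 2480 and 1951 CPM against 2485 and 2132. Per kilobase of exon, Col4a2 lay above Col4a1 in each library, with ratios of 1.69 and 2.24 in STING ECKO against 1.64 and 1.50 in WT. The highest ratio was in STING ECKO 2, where the level of Col4a1 was low.

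Col18a1, whose C-terminal part is endostatin, was at 300 and 239 CPM in STING ECKO against 312 and 264 in WT. Its 95% interval ran from 0.63-fold to 1.41-fold. Col15a1, a related collagen of vessel walls, had 28 and 1 reads in STING ECKO against 37 and 24 in WT, so STING ECKO 2 alone was low (log2 fold change -0.87, SE 1.93, 95% interval -5.78 to 4.05 in edgeR). Col4a5, a further type IV chain, had no row in the tables and counts as at most 4 reads under the rule used. All 4 collagens tested were lowest in STING ECKO 2 and highest in WT 3. With STING ECKO 2 left out, the log2 fold changes of Col4a1, Col4a2, Col18a1 and Col15a1 were 0.0089, 0.11, 0.069 and 0.096, so their common direction rested on that library. The signs of Col4a2 and Col18a1 also turned with WT 3 left out.

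None of the 6 laminin chains passed, 4 lay above 0 and 2 below, and their median log2 fold change was 0.08. Per kilobase of exon, the alpha chain Lama4 was at 135 and 105 CPM in STING ECKO against 115 and 109 in WT, while Lama5 was at 1.12 and 2.53 against 2.16 and 1.76. The beta and gamma chains Lamb1 and Lamc1 lay close to each other, at 88.6 and 77.4 against 85.1 and 74.4 for Lamb1 and 87.0 and 75.8 against 68.0 and 71.8 for Lamc1. Lama4, Lamb1 and Lamc1 form one endothelial laminin trimer, and Lama5 takes the place of Lama4 in another. In these libraries Lama5 was 0.008 and 0.024 of Lama4 per length in STING ECKO against 0.019 and 0.016 in WT.

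In CPM, Lama4 was at 1631 and 1264 in STING ECKO against 1387 and 1321 in WT, and its 95% interval ran from 0.76-fold to 1.50-fold. Lamb1 was at 879 and 768 against 844 and 738, with an interval of 0.755-fold to 1.43-fold. Lamc1 was at 720 and 627 against 563 and 594. Both STING ECKO libraries of Lamc1 lay above both WT libraries, with a log2 fold change of 0.22 (SE 0.18, 95% interval -0.24 to 0.67, unadjusted p = 0.273 in edgeR).

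Lamb2, the beta chain of other vascular laminins, was at 399 and 222 CPM against 411 and 364. Only STING ECKO 2 was low, the log2 fold change being -0.32 with it and 0.049 without it, and per length Lamb2 stood at 0.740, 0.473, 0.793 and 0.803 of Lamb1 in STING ECKO 1 and 2 and then WT 3 and 5. Lama5 was at 12.7 and 28.8 CPM against 24.6 and 20.0, the STING ECKO libraries lying on both sides of WT.

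Lama2, an alpha chain that in brain vessels is known from astrocytes, pericytes and fibroblasts, had the largest ratio among the members. It had 188 and 370 reads in STING ECKO against 36 and 66 in WT, or 10.2 and 16.9 CPM against 1.66 and 3.18. The means were 13.6 ± 4.72 and 2.42 ± 1.07 CPM (SD, n = 2 libraries each; edgeR log2 fold change 2.48, SE 1.18, 95% interval -0.52 to 5.49, adjusted p = 1.00). Both pairs of libraries deposited together had it higher in STING ECKO, with log2 differences of 2.55 for STING ECKO 1 minus WT 3 and 2.38 for STING ECKO 2 minus WT 5. Without 1 library at a time the log2 fold change stayed between 2.08 and 3.03.

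Marker genes of cells that make Lama2 did not all lie the same way. The 11 pericyte and smooth muscle markers summed to 9233 and 9558 CPM in STING ECKO against 7503 and 6936 in WT, of which Rgs5 made up 6849 and 7225 against 5591 and 4876. Of the 9 tested, Rgs5, Kcnj8 and Anpep were higher in both STING ECKO libraries than in both of WT, Cspg4 and Acta2 were lower, and 4 overlapped. Cspg4 was at 83.8 and 152 CPM against 155 and 181, Acta2 had 0 and 0 reads against 31 and 55, and Des was at 29.5 and 0.41 CPM against 20.7 and 21.1. The 6 fibroblast markers summed to 277 and 286 CPM against 234 and 186, with Pdgfra at 0 to 21 reads. Of the 4 tested, 3, all collagens, were higher in STING ECKO without overlap, as were 15.4% of all genes. For Col1a1 the gap was narrow, 19.6 CPM in STING ECKO 2 against 19.1 in WT 5. Dcn leaned the other way with overlap, at 36 and 0 reads in STING ECKO against 154 and 8 in WT. Lum, listed in 1 table, had 1 read in STING ECKO 2 against 79 in WT 5. The 7 astrocyte and radial glia markers summed to 305 and 211 CPM against 375 and 323, of which Gja1 made up 263 and 210.1 against 277 and 249.01. Of the 6 tested, Slc1a3, Fgfr3, Aqp4 and Acsbg1 were lower in STING ECKO without overlap, Slc1a3 at 13.1 and 0.59 CPM against 50.9 and 33.95 and Acsbg1 at 0 reads in both STING ECKO libraries. The part of other cells in the level of Lama2 was not tested. In RNA of many cells, fewer cells of a type and less RNA per cell cannot be told apart.

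**Figure D3:**
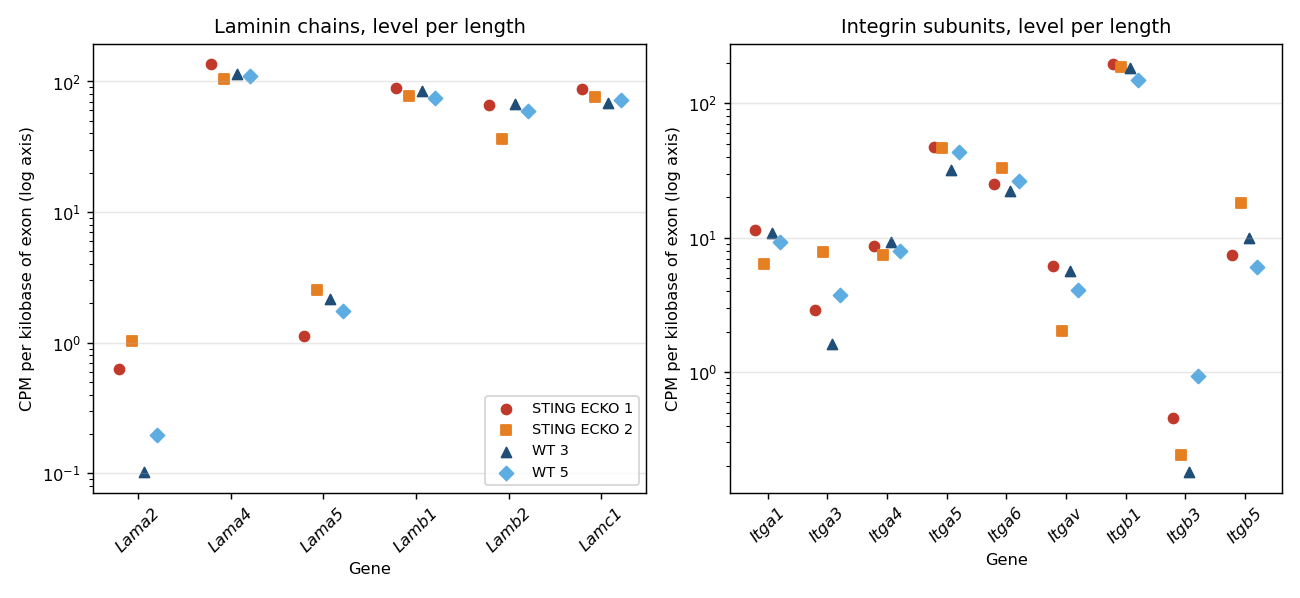
Levels per kilobase of exon, on a log axis, of laminin chains (left) and integrin subunits (right) in the 4 libraries; each symbol is 1 library. Lama4, Lamb1, Lamb2 and Lamc1 lie between 36.6 and 135 while Lama2 and Lama5 stay below 2.6, and Itgb1 lies above every alpha subunit shown.

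None of the 4 nidogens and proteoglycans passed, and 1 lay above 0 and 3 below (median log2 fold change -0.14). Perlecan, the product of Hspg2 (chromosome 4, 137468769 to 137570630, plus strand), had the smallest p among the members. Its level was 291 and 414 CPM in the STING ECKO libraries 1 and 2, against 233 and 158 in WT 3 and 5. Both STING ECKO libraries lay above both WT libraries, though STING ECKO 1 and WT 3 were nearer to each other than to their partners. The means were 353 ± 87.2 and 195 ± 53.4 CPM (SD, n = 2 libraries each; edgeR log2 fold change 0.85, SE 0.31, unadjusted p = 0.0376, adjusted p = 1.00). The log2 difference was 0.32 in the pair STING ECKO 1 and WT 3 and 1.39 in the pair STING ECKO 2 and WT 5, and the log2 fold change lay between 0.58 and 1.16 without 1 library at a time. Of the pericyte and smooth muscle markers given above, 3 lay the same way without overlap, 2 lay the other way and 4 overlapped, and their part in the level of Hspg2 was not tested.

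Agrn, which encodes agrin, was at 1326 and 1027 CPM in STING ECKO against 1133 and 1308 in WT, with a 95% interval of 0.675-fold to 1.38-fold. The nidogens Nid1 and Nid2, which tie laminin to collagen IV, were at 725 and 571 against 790 and 719, and at 673 and 430 against 548 and 791. The Nid2 libraries differed within WT by 0.53 and within STING ECKO by -0.65 (log2, the higher-numbered library minus the other), and its genotypes overlapped. Of the 4 genes of this group, 3 were lowest in STING ECKO 2, and Hspg2 was highest there. Without that library the log2 fold changes of Agrn and Nid2 were 0.13 and 0.015, in place of -0.05 and -0.28.

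Neither of the other matrix glycoproteins passed. Sparc, a collagen-binding matricellular protein, was the most abundant member and the steadiest, at 3158 and 3198 CPM in STING ECKO against 3346 and 2954 in WT. The highest library was 1.13 times the lowest, and the 95% interval of the genotype difference was 0.775-fold to 1.31-fold. Fn1, fibronectin, the ligand of the integrin of Itga5 and Itgb1, was at 965 and 680 CPM against 938 and 807.

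None of the 6 alpha subunits (3 above 0 and 3 below, median log2 fold change 0.08) or the 3 beta subunits tested (2 above and 1 below, median 0.20) passed. Itgb1, the beta subunit that pairs with Itga1, Itga3, Itga4, Itga5, Itga6 and Itgav, was the most abundant integrin per length, at 195 and 186 CPM per kilobase in STING ECKO against 183 and 148 in WT. In CPM it was at 794 and 760 against 747 and 603, without overlap but with WT 3 close to the STING ECKO libraries (log2 fold change 0.20, SE 0.19, 95% interval -0.28 to 0.69 in edgeR). Of the alpha subunits, Itga5, the fibronectin receptor chain, and Itga6, a laminin receptor chain, were highest per length, at 0.174 to 0.293 and 0.121 to 0.179 of Itgb1.

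Itga5 was at 235 and 231 CPM in STING ECKO against 157 and 213 in WT. Its genotypes did not overlap, and the gap rested on WT 3 (log2 fold change 0.33, SE 0.25, unadjusted p = 0.239 in edgeR; 0.13 without WT 3). Itga6 was at 225 and 295 CPM against 200 and 238, with overlap. The collagen and laminin receptor chain Itga1 was at 211 and 119 against 200 and 173, low in STING ECKO 2 alone. Itga4, a receptor chain for fibronectin and VCAM1, was at 121 and 105 against 129 and 111, the steadiest of the alpha subunits, with an interval of 0.58-fold to 1.52-fold.

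Subunits at lower levels varied more from library to library. Itga3, a laminin receptor chain, was at 16.5 and 44.7 CPM in STING ECKO against 9.20 and 21.4 in WT (log2 fold change 1.00, SE 0.86, 95% interval -1.20 to 3.20 in edgeR). STING ECKO 2 lay above WT 5 and STING ECKO 1 above WT 3, but WT 5 lay above STING ECKO 1. Itgav, the alpha subunit of the RGD-binding integrins, was at 65.7 and 21.9 CPM against 60.5 and 44.2 (log2 fold change -0.26, SE 0.65, 95% interval -1.90 to 1.39 in edgeR). Its partner Itgb5 was at 26.4 and 64.7 against 35.3 and 21.5. In STING ECKO 2 Itgav was thus at its lowest and Itgb5 at its highest, and their ratio per length, Itgb5 over Itgav, was 8.94 there and between 1.22 and 1.76 in the other libraries.

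Itgb3, which pairs with Itgav and, in platelets, with Itga2b, had 49 and 31 reads in STING ECKO against 23 and 115 in WT. Only WT 5 was high, and the log2 difference between the WT libraries was 2.28, against a log2 fold change between genotypes of -0.69 (SE 1.57, 95% interval -4.70 to 3.32 in edgeR). Itgb8, the subunit known for activating TGF-beta with Itgav, was listed in 1 table, with 64 reads in STING ECKO 1 and 16 in WT 3. It counts as at most 4 reads in the other libraries and was not tested.

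None of the 6 adhesion plaque genes tested passed, with 4 above 0 and 2 below (median log2 fold change 0.28). Fermt2, a kindlin, which binds the tail of beta integrins, was at 170 and 182 CPM in STING ECKO against 143 and 147 in WT. Its genotypes did not overlap and its libraries lay close within each genotype (means 176 ± 8.99 and 145 ± 3.13, SD, n = 2 libraries each; edgeR log2 fold change 0.28, SE 0.23, 95% interval -0.30 to 0.86, adjusted p = 1.00). Ptk2, focal adhesion kinase, was at 318 and 379 CPM against 303 and 271 (log2 fold change 0.28, SE 0.21, unadjusted p = 0.236 in edgeR). Pxn, the scaffold paxillin, was at 162 and 153 against 140 and 121. In these 3 genes both STING ECKO libraries lay above both WT libraries, by ratios of the means of 1.22, 1.21 and 1.21.

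Tln1, talin, which links beta integrins to actin, was at 205 and 236 CPM in STING ECKO against 257 and 241 in WT. Here both STING ECKO libraries lay below both WT libraries, and STING ECKO 2 was close to WT 5. Vcl, vinculin, was at 52.5 and 94.6 CPM against 100 and 74.7, and Parva, alpha-parvin, at 45.8 and 116 against 65.0 and 64.4. Vcl and Parva were both lowest in STING ECKO 1, and Parva was highest in STING ECKO 2, so its WT libraries lay between those of STING ECKO. Ilk, the kinase-like partner of parvin, had no row in the tables. In the GENCODE annotation it overlaps Taf10 on the opposite strand, and the strand setting of the counting was not stated.

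Neither the proteases nor their inhibitor passed, with 2 of the 3 above 0 (median log2 fold change 0.38). Mmp14, the membrane-bound metalloproteinase that cleaves matrix at the cell surface (chromosome 14, 54431612 to 54441265, plus strand), was at 83.1 and 123 CPM in STING ECKO against 54.5 and 68.4 in WT. Its genotypes did not overlap (means 103 ± 28.0 and 61.4 ± 9.82, SD, n = 2 libraries each; edgeR log2 fold change 0.74, SE 0.36, 95% interval -0.19 to 1.67, unadjusted p = 0.0953, adjusted p = 1.00). Both deposited pairs gave the same sign, with log2 differences of 0.61 and 0.84. Timp3, a matrix-bound inhibitor of such proteases, was at 75.9 and 94.2 CPM against 40.7 and 90.3, with WT 3 alone low.

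Adamts1, a secreted protease that cleaves proteoglycans, was at 72.3 and 28.3 CPM in the STING ECKO libraries 1 and 2, against 80.2 and 33.4 in WT 3 and 5. The 2 libraries of one deposited table were high and those of the other low, so within tables the log2 differences between genotypes were -0.15 and -0.24, while the log2 differences within genotypes were -1.35 and -1.26. The labels do not say whether libraries deposited together were prepared together.

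**Figure D4:**
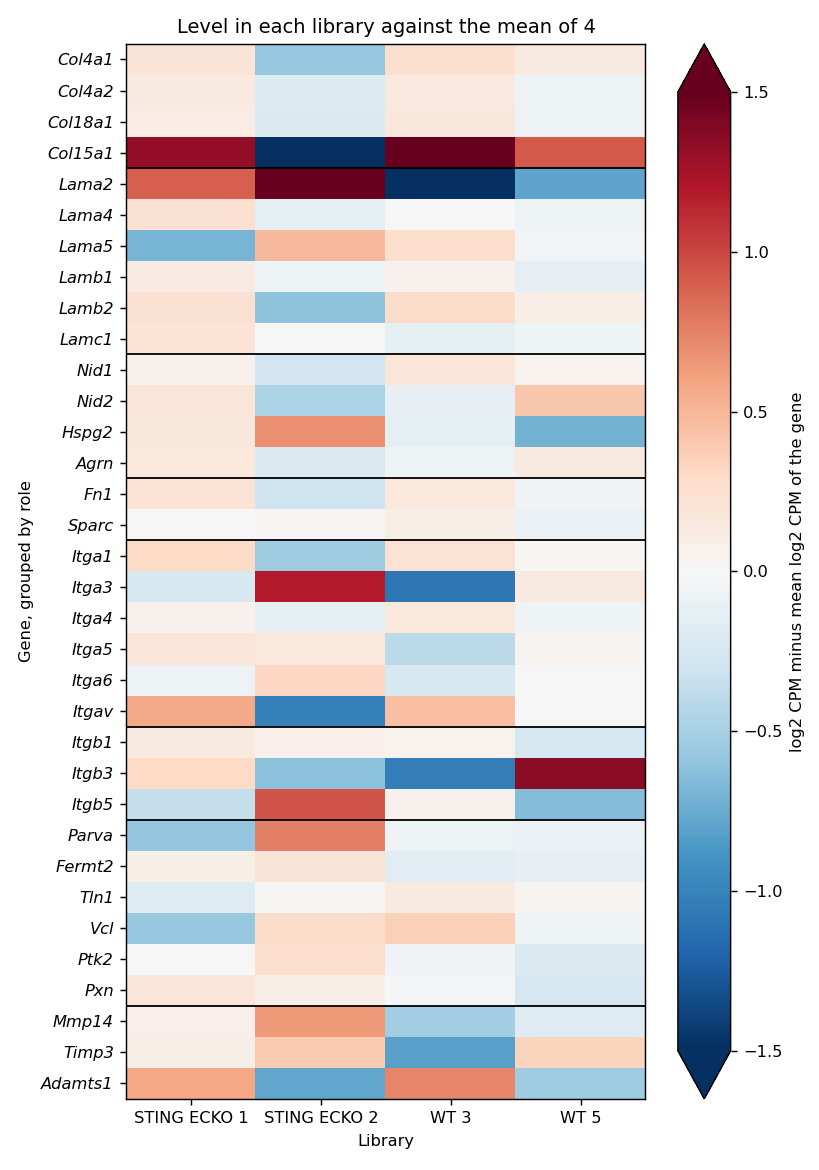
Level of each member in each library as log2 CPM minus the mean of that gene over the 4 libraries, grouped by role; red is above and blue below the mean, and values beyond the ends of the colour bar take its end colours. STING ECKO 2 is below the mean in the 4 collagens and above it in Hspg2, Itgb5, Parva and Mmp14.

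Members differed between libraries of one genotype about as they did between genotypes. STING ECKO 1 and 2 differed by a median absolute log2 CPM of 0.45 over the members and WT 3 and 5 by 0.23, while the 4 pairs across genotypes ranged from 0.22 to 0.42. Over all genes with 50 CPM or more, as 27 of the 34 members have, these medians were 0.44, 0.31 and 0.29 to 0.46. In 27 members the larger of the differences within a genotype exceeded the absolute log2 fold change between genotypes. That comparison sets the larger of 2 single-library differences against a difference between groups, which by itself favours the former. The deposited pairs gave the same sign in 22 members, 13 of them higher in STING ECKO, and opposite signs in 12. The shares over all genes were not counted for these comparisons, so they do not set the members apart.

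One order of the libraries recurred and was counted after the values were seen. WT 3, then STING ECKO 1, WT 5 and STING ECKO 2 was the order from high to low in 8 of 34 members (23.5%), and in 6.39% of all genes tested. The 8 were Col4a1, Col4a2, Col18a1, Col15a1, Lamb2, Nid1, Itga4 and Adamts1. In a further 4 (11.8%, against 5.19% of all genes), Lama4, Fn1, Itga1 and Itgav, STING ECKO 1 came before WT 3. STING ECKO 2 was the lowest library in 14 members (41.2%, against 39.3% of all genes and 32.6% of those with 50 CPM or more). It was the highest in 11 (32.4%, against 29.8% and 36.6%). WT 5 was the highest library in 2 members, Nid2 and Itgb3, which is 5.88% against 23.7% of all genes.

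Of 96 further matrix and adhesion genes, 83 were tested. None of them passed in edgeR (0 of 83, smallest adjusted p 0.977, adjusted over all genes), 3 had an unadjusted p under 0.05 (4.8% of all genes had), and DESeq2 called 1, Lpxn. Of the 83, 36 had a log2 fold change above 0, where 48.2% of all genes had, and the median was -0.03. The genotypes did not overlap in 24 of the 83, with 11 higher in STING ECKO and 13 lower. Over all genes 34.4% did not overlap, 15.4% being higher in STING ECKO and 19% lower.

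The 6 with the smallest p are given as values. Lpxn, leupaxin, a relative of paxillin known from blood cells, had 1 and 0 reads in STING ECKO against 176 and 284 in WT. Itga2b, the platelet integrin chain, was at 22.1 and 40.2 CPM against 6.43 and 5.02 (log2 fold change 2.44, SE 0.81, edgeR adjusted p = 0.977). Nedd9, a docking protein that binds focal adhesion kinase, was at 91.7 and 97.9 CPM against 57.3 and 47.6.

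Adamts4, a proteoglycan-cleaving protease, had 11 and 0 reads in STING ECKO against 365 and 215 in WT. Itga8 and Itga7, alpha subunits that are known from mural and muscle cells, had 2 and 0 reads against 37 and 47, and 9 and 67 against 221 and 422. In Itga7 and Itga8 the STING ECKO libraries were low, as they were in the mural markers Acta2 and Cspg4, while Rgs5, Kcnj8 and Anpep were higher there. The part of mural cells in these levels was not tested. Microglia and macrophage markers summed to 543 and 417 CPM in STING ECKO against 544 and 1329 in WT, with all 9 detected in each library. Of these 9, Cx3cr1, C1qb and Pf4 were lower in both STING ECKO libraries than in both of WT, C1qc was higher, and 5 overlapped. Pf4, known from platelets too, stood at 13.3 and 16.2 CPM against 22.5 and 103, and C1qc at 56.4 and 69.5 against 10.8 and 50.9. The part of blood and immune cells in the levels of Lpxn and Itga2b was not tested.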

How the data were processed

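Reads per gene were taken as the raw count columns of 2 tables deposited by the authors, per the file headers, one with STING ECKO 1 and WT 3 and the other with STING ECKO 2 and WT 5. Alignment and counting tools listed by the submitters' processing notes are TopHat2 2.0.12, HTSeq 0.6.0 and Bowtie2 2.2.3, with the build mm9; of 17858 genes matched to GENCODE M21 on GRCm38, 89.7% had identical positions in the tables. Tables were joined by gene identifier, which left 14100 genes in both. Genotypes were compared with the edgeR 4.0.16 (R 4.3.3) quasi-likelihood test on the 13365 genes kept by filterByExpr (minimum count 10), with TMM factors, Benjamini-Hochberg adjustment and a threshold of 0.05. CPM uses TMM-scaled library sizes, so 1 read was 0.0457 to 0.0545 CPM. Log2 differences between single libraries use a prior count of 2, and levels per length use the union of GENCODE exons. Alternatives were DESeq2 1.42.0, limma 3.58.1, other scalings and filters, a block by table, and dropping 1 library at a time. Members, lists and tests were chosen with earlier results of these data known. Every member is described; the 8 with the smallest p and the 4 with the largest difference within a genotype are given with fold change and SE. Protein sequences were not used here.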

Additional observations from a re-analysis of the deposited data

How the results depend on the processing

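No alternative made a member pass: 0 members were called by each of the 14 settings tried, and the smallest adjusted p of a member was 0.193, without STING ECKO 1. The count of all genes called was 87 with DESeq2 and 33 with the edgeR likelihood ratio test, and 0 with limma-voom, the other scalings, the other filters, the block by table and each library left out. Of the further pathway genes DESeq2 called 1. With 1 library left out, 17 to 27 members had a log2 fold change above 0 (43.1% to 52.1% of all genes), and the genotypes did not overlap in 15 to 30 (61.9% to 77.8% of all genes). Sparc turned to -0.018 under library totals alone and to -0.017 under upper quartile factors. With 1 library left out, the sign of the log2 fold change turned in the following, given with their range: Col4a1 (-0.75 to 0.0089), Col4a2 (-0.24 to 0.11), Col18a1 (-0.26 to 0.069), Col15a1 (-4.80 to 0.096), Lama4 (-0.097 to 0.28), Lama5 (-0.81 to 0.37), Lamb1 (-0.042 to 0.16), Lamb2 (-0.80 to 0.049), Nid2 (-0.64 to 0.017), Agrn (-0.25 to 0.13), Fn1 (-0.36 to 0.15), Sparc (-0.066 to 0.11), Itga1 (-0.65 to 0.18), Itga4 (-0.19 to 0.033), Itgav (-1.25 to 0.34), Itgb3 (-1.43 to 0.95), Itgb5 (-0.095 to 1.19), Parva (-0.49 to 0.84), Vcl (-0.73 to 0.11), Timp3 (-0.084 to 1.07), Adamts1 (-1.01 to 0.59). The cause was not tested. The genotypes share no replicate number in the labels, so libraries could be paired only by the table they were deposited in; with that table as a block, 17 members lay above 0 and 0 had an unadjusted p under 0.05. Leaving out a library leaves 1 sample in its genotype, which is assumed to vary like the other. Depth limits Col15a1, Itgb3, Itgb8 and Lama2, which had under 50 reads in at least 1 library.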
